A study of Mus musculus with 12 samples.

Results

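The DEAD and DEAH box helicase genes were examined as targets of 3 RNA-binding proteins: a Puf60 isoform that includes exon 5, the Puf60 isoform that lacks it, and Rbm38. The members are the mouse protein-coding genes whose symbol begins with Ddx or Dhx and a number, which gave 53 of 21900 protein-coding genes, 37 named Ddx and 16 named Dhx. Contacts were mapped by iCLIP, in which ultraviolet light (150 mJ/cm2) crosslinks proteins to the RNA they touch, in N2A cells, a mouse neuroblastoma line. Each protein was made in a cell line of its own from a Flp-in transgene switched on by 1 µg/ml doxycycline, and was pulled down with an anti-Flag antibody. Each had 3 CLIP libraries and 1 size-matched input, which is RNA of the same size range without the pull-down, so the study holds 12 samples. Per the labels, expression was induced for 48 h in the CLIP libraries of Puf60 with exon 5, and for 24 h in its input and in all libraries of Puf60 without exon 5 and of Rbm38. Between the Puf60 tables, the isoform and the time of induction thus cannot be told apart. Protein and induction time are likewise mixed between Puf60 with exon 5 and Rbm38. For Puf60 with exon 5, CLIP at 48 h is moreover set against an input at 24 h. Its folds and calls therefore cannot tell binding from a change of RNA level between these times. The labels do not say whether replicates came from separate cultures or whether a line is 1 clone.

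The files hold, per protein, the authors' table of clusters (short stretches of the genome covered by reads), each with its log2 fold of CLIP over input and its p-value before and after adjustment. They hold no value per library, so depth and the spread between replicates are unknown, and no test between proteins or gene sets was possible. A cluster is called enriched here at a deposited adjusted p under 0.05. Clusters were assigned to a helicase gene when their centre lay in the gene body on the gene's strand. Clusters of 1 gene share its transcripts and are not replicates, and the 95% Wilson intervals given with shares cover counting error only. A gene with few or no clusters may have little RNA in these cells, and RNA level and binding cannot be told apart there. Exon annotation was not used here, so a position is given as the distance from the 3′ end of the gene and not as exon, intron or UTR. Transcripts of the tagged genes were looked at as a check of the labels, with reads of transgene and endogenous gene inseparable. Puf60 itself held 12 enriched clusters with exon 5 and 7 without it in the authors' deposited tables, and 1, with a log2 fold of 4.43, in that of Rbm38. Rbm38 held 4 in its own table and was not listed in either Puf60 table.

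DEAD and DEAH box helicases are enzymes that use ATP to unwind RNA or to remove proteins from it. Individual members drive steps of splicing, carry mRNA through the nuclear pore, start translation, assemble ribosomes or sense viral RNA. Puf60, a relative of the splicing factor U2af2, binds pyrimidine-rich RNA near 3′ splice sites and helps to recruit the U2 snRNP. Rbm38, whose gene is a target of p53, binds RNA through an RNA recognition motif and is known for binding to 3′ untranslated regions of mRNAs. Several helicases of the splicing group work at the step at which the U2 snRNP joins the intron, the step in which Puf60 also takes part.

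Few deposited sequences cover the clusters, since no genome sequence was used, but some RefSeq sequences of GRCm38.p6 lie under them and show bases that they cover. Of 58 promoter windows (250 bases before to 50 after an annotated start) of 47 helicase genes, 5 were met by a listed cluster and 3, in Ddx5, Ddx17 and Ddx42, by an enriched one. All 3 of these windows lie inside the gene body. Those in Ddx17 and Ddx42, with their first base 13597 and 13529 nt from its 5′ end, are shown. The Ddx5 window (chr11:106788445-106788744, minus strand) is not shown. It shares 91 bases, 57.1% pyrimidine, with enriched clusters of Puf60 with exon 5 (1.16) and without it (1.76) in the authors' deposited tables. The Ddx17 and Ddx42 windows are printed 5′ to 3′ on the gene's strand. In Ddx17 (chr15:79532868-79533167, minus strand) capitals mark the bases inside enriched clusters of Puf60 with exon 5. In Ddx42 (chr11:106230416-106230715, plus strand) the first run of capitals marks an enriched cluster of Rbm38 and the second run an enriched cluster of Puf60 without exon 5.
Ddx17: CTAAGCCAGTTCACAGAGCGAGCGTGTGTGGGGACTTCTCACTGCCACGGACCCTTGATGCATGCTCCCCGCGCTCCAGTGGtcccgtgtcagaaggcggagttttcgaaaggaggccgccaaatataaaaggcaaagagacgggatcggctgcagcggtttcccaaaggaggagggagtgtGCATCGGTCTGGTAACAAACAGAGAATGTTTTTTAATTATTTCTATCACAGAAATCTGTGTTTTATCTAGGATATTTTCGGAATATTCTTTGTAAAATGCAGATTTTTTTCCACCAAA
Ddx42: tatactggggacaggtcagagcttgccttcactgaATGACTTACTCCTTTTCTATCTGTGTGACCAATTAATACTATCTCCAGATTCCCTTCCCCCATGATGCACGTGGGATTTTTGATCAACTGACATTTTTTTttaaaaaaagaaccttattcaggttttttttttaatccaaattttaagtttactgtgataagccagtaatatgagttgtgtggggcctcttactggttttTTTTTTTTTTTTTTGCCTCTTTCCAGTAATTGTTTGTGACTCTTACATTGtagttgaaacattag
In the Ddx17 window the 200 bases in capitals were 54% pyrimidine. A cluster of Puf60 without exon 5 (chr15:79533036-79533385, 1.86 in the authors' deposited table) also covers part of the bases in lower case, and its 132 bases in the window were 47.7% pyrimidine. The capitals belonged to clusters with a log2 fold of 1.66 and 1.32 in the authors' deposited table for Puf60 with exon 5. An enriched Rbm38 cluster (chr15:79532336-79532985, 2.27 in the authors' deposited table) covers the 118 bases of the second run of capitals, so that run is not particular to Puf60. In the Ddx42 window the Rbm38 cluster was 65% pyrimidine and the Puf60 cluster 76%, against a median of 49.7% over all 32851 windows of the table. Their log2 folds in the authors' deposited tables were 0.69 for Puf60 without exon 5 and 1.70 for Rbm38. The motif TTTTT, counted without overlap, occurred 7 times on the gene's strand of the Ddx42 window and 2 times on that of Ddx17. It is found on that strand in 26.2% of all windows and on either strand in 42.7%. The motif TGTGT occurred 2 times in each, on the gene's strand, and is found there in 28.8% of all windows and on either strand in 47.9%. These matches describe 2 windows that were chosen because clusters lay in them.

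MicroRNA hairpins of RefSeq lie in part or whole inside enriched clusters of Ddx39b and Ddx5, and are shown for that reason. In the Mir8094 hairpin (chr17:35251289-35251405, plus strand) capitals mark the 112 bases inside an enriched cluster of Puf60 with exon 5. The Mir3064 hairpin (chr11:106782693-106782759, minus strand) lies whole inside a longer cluster. In the mature microRNAs capitals mark the seed, bases 2 to 8, and no seed is shared between them.
Mir8094 hairpin: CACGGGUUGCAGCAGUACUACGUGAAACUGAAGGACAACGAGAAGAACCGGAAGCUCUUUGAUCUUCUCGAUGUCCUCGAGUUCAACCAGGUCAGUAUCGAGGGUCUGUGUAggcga
Mir3064 hairpin: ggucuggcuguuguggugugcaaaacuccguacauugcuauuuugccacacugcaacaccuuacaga
miR-8094: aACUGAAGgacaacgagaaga
miR-3064-5p: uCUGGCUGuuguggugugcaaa
miR-3064-3p: uGCCACACugcaacaccuuaca
At Mir8094 the log2 fold in the authors' deposited tables was 3.39 for Puf60 with exon 5, 3.19 and 2.64 in a pair of clusters without exon 5, and 0.01, not enriched, for Rbm38. The clusters of that pair share only 12 and 50 bases with the hairpin, and the mature miR-8094 lies between them. At Mir3064 the log2 fold was 2.12, 1.75 and 1.01 in the authors' deposited tables, in the same order of proteins, and all 3 clusters were enriched. Reads of the hairpin and of the host transcript cannot be separated here.

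Across the family, 30 of the 53 genes had a listed cluster on their strand in at least 1 table, and 25 had an enriched one. Puf60 with exon 5 had 181 listed clusters in 24 helicase genes, of which 92 were enriched (50.8%, 43.6 to 58.0), in 18 genes. Puf60 without exon 5 had 243 listed clusters in 26 genes, with 130 enriched (53.5%, 47.2 to 59.7), in 17 genes. Rbm38 had 162 listed clusters in 24 genes, with 73 enriched (45.1%, 37.6 to 52.7), in 19 genes. Over clusters on the strand of any protein-coding gene, the enriched share was 39.4%, 36.5% and 51.9% for the same proteins, and over every listed cluster 39.1%, 36.1% and 50.9%. The helicase interval thus lay above the background for both Puf60 isoforms, and for Rbm38 it holds the background. Ddx17, Ddx39b, Dhx9 and Ddx5 held 64 of the 92 enriched clusters with exon 5 and 93 of the 130 without it. In the other helicase genes 28 of 74 clusters (37.8%, 27.6 to 49.2), 37 of 116 (31.9%, 24.1 to 40.8) and 40 of 68 (58.8%, 47.0 to 69.7) were enriched, and these intervals hold the background shares. The 4 genes were picked as those with the most enriched Puf60 clusters, so that leaving them out lowers the Puf60 shares by construction.

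Counted by gene, 18, 17 and 19 helicase genes had an enriched cluster, for Puf60 with exon 5, Puf60 without exon 5 and Rbm38. The family has 53 genes, of which the 4 with an unsettled strand could not be counted. Of all 18369 protein-coding genes with a known strand, 18.7%, 18.8% and 28.0% had an enriched cluster. Of the protein-coding genes that had any listed cluster, 64.6%, 62.9% and 84.0% had an enriched one. The median log2 fold of the enriched helicase clusters in the authors' deposited tables was 2.24, 1.90 and 2.12, against 2.85, 2.72 and 2.37 over all protein-coding genes. The 95% intervals of the helicase medians were 1.94 to 2.55, 1.76 to 2.33 and 1.68 to 2.44, below the background for both Puf60 isoforms and holding it for Rbm38. Outside the 4 genes just named the medians were 2.94, 2.94 and 2.50.

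The sets of genes overlapped. The same overlaps are not given here over all protein-coding genes, so nothing particular to helicases is read from them. All 3 tables had an enriched cluster in 10 genes, Ddx5, Ddx17, Ddx21, Ddx39a, Ddx39b, Ddx42, Ddx46, Ddx50, Dhx9 and Dhx36. Both Puf60 tables but not Rbm38 had one in Ddx1, Ddx27, Dhx40 and Dhx57, and Rbm38 alone had one in Ddx6, Ddx19a, Ddx51 and Dhx16. Dhx33 was enriched with exon 5 only, and Ddx49 without exon 5 only, each through 1 cluster. The 23 genes with no listed cluster on their strand include Ddx4, a germ cell marker, Ddx58 and Dhx58, which sense viral RNA, and Ddx3y. They also include Ddx20, Ddx41, Dhx8 and Dhx29. For 4 of the 23, Ddx11, Ddx23, Dhx38 and Dhx58, the strand could not be settled.

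**Figure D1:**
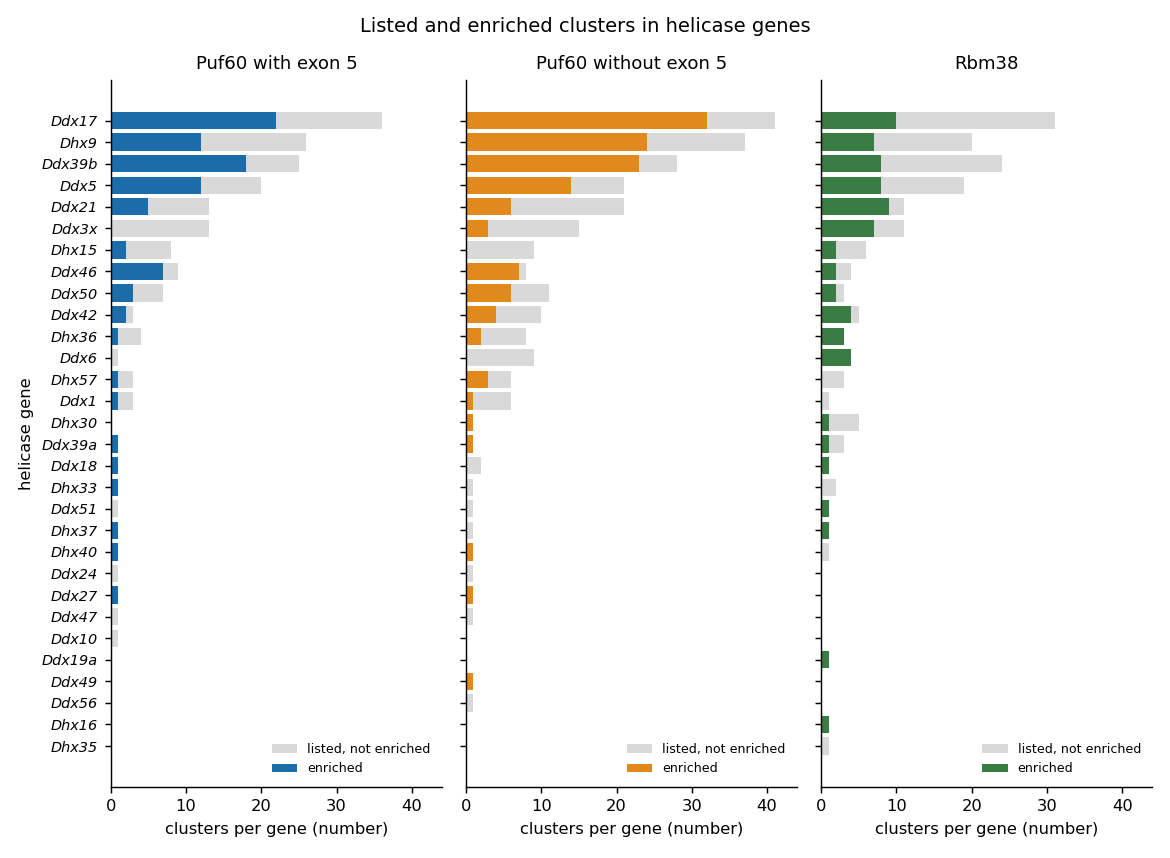
Number of listed clusters (whole bar) and enriched clusters (coloured part) in each of the 30 helicase genes with a listed cluster, with 1 panel per protein. Ddx17 has the longest bar in every panel, with 22, 32 and 10 enriched clusters, and Ddx3x is coloured in the panels of Puf60 without exon 5 and Rbm38 only.

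Among the 12 splicing helicases, 6 genes had an enriched cluster for Puf60 with exon 5, 5 for Puf60 without exon 5 and 7 for Rbm38. Ddx23 and Dhx38 are among the 12, but their clusters could not be counted because their strand is unsettled. The group held 63 enriched of 101 listed clusters with exon 5 (62.4%), 80 of 117 without exon 5 (68.4%) and 35 of 91 for Rbm38 (38.5%). Ddx5, Ddx17 and Ddx39b alone held 52, 69 and 26 of these enriched clusters. Ddx17 (gene 67040, chr15:79527696-79546764, minus strand) and its paralogue Ddx5 (gene 13207, chr11:106780355-106789185, minus strand) are DEAD box proteins that act in splicing, transcription and microRNA processing. Ddx17 held 22 enriched of 36 clusters with exon 5, 32 of 41 without exon 5 and 10 of 31 for Rbm38. Its strongest Puf60 cluster had a log2 fold of 4.47 with exon 5 (chr15:79531736-79532285) and 4.61 without it (chr15:79531686-79532285) in the authors' deposited tables, 4314 and 4289 nt from the 3′ end. At that place the Rbm38 cluster had 0.80 in the authors' deposited table and was not enriched. It is among the clusters whose deposited p was under 0.05 but which lost the call after adjustment, for an unstated reason. The family has 23 such clusters for Rbm38, 10 with exon 5 and 7 without it. Most of the 23 lie in Ddx17 and Ddx39b. In Ddx17 they include chr15:79534686-79535685, with 1.36, and chr15:79533086-79533285, with 0.96, in the authors' deposited table. The low Rbm38 shares of these genes and of the splicing group thus rest in part on those unexplained calls. The strongest Rbm38 cluster of Ddx17, 2.39 in the authors' deposited table, lay 8139 nt from the 3′ end (chr15:79535736-79535935), where Puf60 with exon 5 had 2.21 and Puf60 without exon 5 had 1.92. Contacts in Ddx17 were therefore spread over most of the gene, and Puf60 and Rbm38 shared some places and differed at others.

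Ddx5 held 12 enriched of 20 clusters with exon 5, 14 of 21 without exon 5 and 8 of 19 for Rbm38. The enriched clusters covered 3800, 4100 and 3900 nt, so the smaller number for Rbm38 came with wider clusters. Its strongest Puf60 cluster (chr11:106784436-106784585, 4155 nt from the 3′ end) had a log2 fold of 3.11 with exon 5 and 2.63 without it in the authors' deposited tables. Its strongest Rbm38 cluster lay 205 nt from the 3′ end (chr11:106780386-106780735), with 4.05 in the authors' deposited table. Ddx5 thus showed its highest Puf60 fold inside the gene and its highest Rbm38 fold at the end. Reads that fit both Ddx5 and Ddx17 could be split between them, and for their handling the sources used here give nothing. The same holds for Ddx39a and Ddx39b, Ddx21 and Ddx50, Ddx3x and Ddx3y, and Ddx19a and Ddx19b.

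Ddx39b (gene 53817, chr17:35241746-35253707, plus strand), also called UAP56, is needed for U2 snRNP recruitment and for mRNA export. It held 18 enriched of 25 clusters with exon 5, 23 of 28 without exon 5 and 8 of 24 for Rbm38. The highest Puf60 folds in the authors' deposited tables were 4.39 with exon 5 (chr17:35248951-35249150) and 4.46 without it (chr17:35249501-35249600), 4656 and 4156 nt from the 3′ end. Rbm38 had its highest fold, 4.86 in the authors' deposited table, 56 nt from the 3′ end (chr17:35253601-35253700). Ddx39b also held the lowest folds of the family, in clusters at annotated small RNA genes of its body. At LOC115488830 (chr17:35242651-35242750) they were -4.05 with exon 5, -3.72 without exon 5 and -1.92 for Rbm38 in the authors' deposited tables. At Gm25128 (chr17:35247151-35247250) they were -3.74, -3.20 and -0.67 in the authors' deposited tables. By the sign of these folds the input held more signal there than the CLIP libraries.

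Ddx46 (gene 212880, chr13:55634975-55681267, plus strand), the homologue of yeast Prp5, acts when the U2 snRNP first binds the intron. It held 7 enriched of 9 clusters with exon 5, 7 of 8 without exon 5 and 2 of 4 for Rbm38. Apart from 1 cluster without exon 5, the enriched Puf60 clusters formed a run between 55659151 and 55660800, and the strongest lay at its 3′ side. It had a log2 fold of 4.90 with exon 5 (chr13:55660651-55660750) and 4.94 without it (chr13:55660651-55660800) in the authors' deposited tables. Rbm38 had -0.66 there and was not enriched, while 2.30 was given for a cluster inside the same run (chr13:55660251-55660300) in the authors' deposited table. The run thus held enriched clusters of both isoforms, with 1 enriched Rbm38 cluster between the Puf60 clusters.

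Ddx42 (gene 72047, chr11:106216887-106249140, plus strand) is a helicase of the U2 snRNP. It held 2 enriched of 3 clusters with exon 5, 4 of 10 without exon 5 and 4 of 5 for Rbm38. The cluster at chr11:106228801-106228850 had 3.68 with exon 5, and that at chr11:106228751-106228850 had 3.16 without it, in the authors' deposited tables. The cluster at chr11:106230301-106230350 had 3.33 with exon 5, and that at chr11:106230301-106230400 had 4.28 without it, in the authors' deposited tables. The last pair lies just upstream of the Ddx42 window printed above. The highest Rbm38 fold, 3.22 in the authors' deposited table, lay 239 nt from the 3′ end. Dhx15 (gene 13204, chr5:52150203-52190546, minus strand), the homologue of yeast Prp43, takes spliceosomes apart. With exon 5 it held a cluster at chr5:52157486-52157585 with 4.02 in the authors' deposited table, and 2 of 8 clusters were enriched. Without exon 5 none of its 9 clusters was. Rbm38 had 4.38 at chr5:52150286-52150585, 232 nt from the 3′ end, in the authors' deposited table. Dhx16, the homologue of yeast Prp2, was listed for Rbm38 only, with 1 cluster of 3.21 in the authors' deposited table, and Dhx35 had 1 Rbm38 cluster, not enriched.

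**Figure D2:**
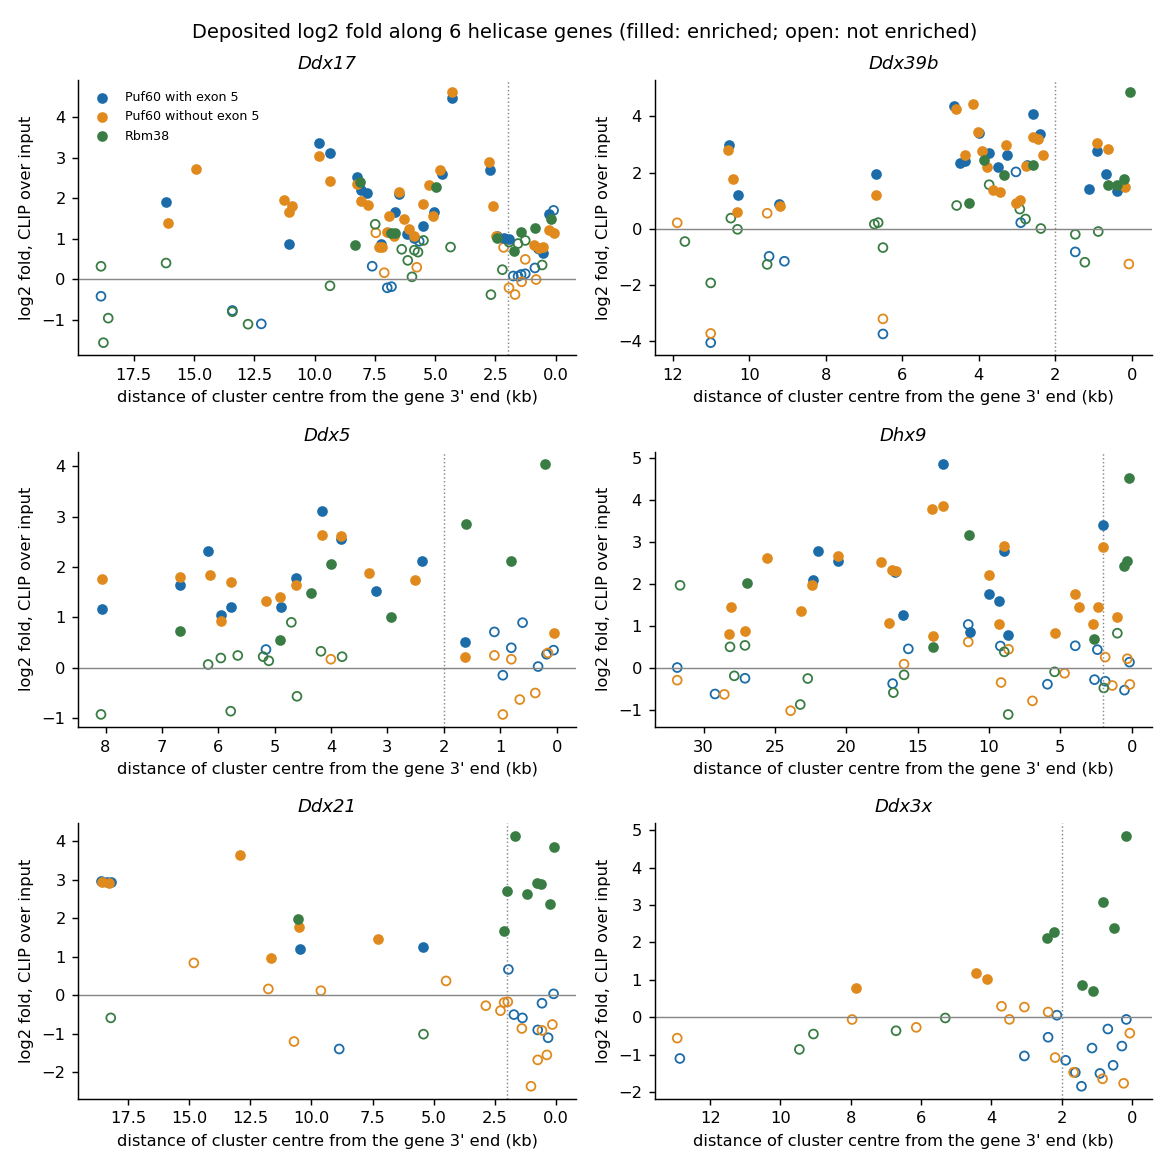
Deposited log2 fold of CLIP over input (vertical axis) against the distance of each cluster centre from the 3′ end of the gene in kb (horizontal axis, 3′ end at the right) for 6 helicase genes. Filled points are enriched, open points are not, and the dotted line marks 2 kb. In Ddx5, Ddx21 and Ddx3x the highest green points (Rbm38) lie within 2 kb of the end, where most Puf60 points are open.

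Of the 5 export helicases, Ddx39b is described above. Its paralogue Ddx39a (gene 68278, chr8:83715177-83726904, plus strand) had 1 Puf60 cluster, at chr8:83719401-83719450, with 2.55 with exon 5 and 3.15 without it in the authors' deposited tables. Rbm38 had 1 of 3 clusters enriched there, at another place (chr8:83723201-83723250), with 3.13 in the authors' deposited table. Ddx19a, which works at the cytoplasmic side of the nuclear pore, was listed for Rbm38 alone, with 3.28 in the authors' deposited table, 69 nt from the 3′ end. Ddx19b and Ddx25 had no listed cluster on their strand.

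In the 8 helicases of translation and cytoplasmic mRNA control, 3 genes were enriched with exon 5, 4 without exon 5 and 4 for Rbm38. They held 14 enriched of 47 clusters (29.8%), 30 of 75 (40.0%) and 21 of 39 (53.8%). Dhx9 (gene 13211, chr1:153455756-153487688, minus strand), also called RNA helicase A, accounted for most of the Puf60 clusters. It held 12 enriched of 26 clusters with exon 5, 24 of 37 without exon 5 and 7 of 20 for Rbm38. Its strongest Puf60 cluster had 4.86 with exon 5 (chr1:153468936-153468985) and 3.87 without it (chr1:153468936-153469035), 13204 and 13229 nt from the 3′ end, in the authors' deposited tables. For Rbm38 no cluster was listed at that place, and the highest fold, 4.53 in the authors' deposited table, lay 154 nt from the 3′ end (chr1:153455786-153456035). Within 2 kb of that end the 3 clusters with exon 5 ran from -0.54 to 0.13, none enriched, and the 5 without exon 5 from -0.42 to 1.20, 1 of them enriched, in the authors' deposited tables.

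Ddx3x (gene 13205, chrX:13280496-13293988, plus strand), promotes translation initiation. With exon 5 none of its 13 clusters was enriched, without exon 5 3 of 15 were, and for Rbm38 7 of 11 were. Within 2 kb of the 3′ end the 9 clusters with exon 5 ran from -1.84 to -0.06 and the 4 without exon 5 from -1.76 to -0.42, while the 5 Rbm38 clusters ran from 0.71 to 4.85, in the authors' deposited tables. The ranges of Puf60 and Rbm38 do not overlap there, and every Puf60 cluster lay below its input. The 3 enriched clusters without exon 5 were weak, at 0.77, 1.18 and 1.03 in the authors' deposited table, and lay 7862, 4437 and 4112 nt from the end.

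Ddx6, a helicase of P-bodies and mRNA decapping, was enriched for Rbm38 in 4 of 4 clusters, with 0.96 to 2.66 in the authors' deposited table. None of its 1 cluster with exon 5 and 9 without exon 5 was enriched. Its strand was inferred from the clusters themselves. Dhx36, which unwinds G-quadruplexes, had its highest folds at different places for the 3 proteins. These were 3.01 with exon 5 (chr3:62480886-62480985), 4.07 without it (chr3:62483836-62483935) and 3.62 for Rbm38 (chr3:62470436-62470485) in the authors' deposited tables. Ddx1, part of the tRNA ligase complex, had 2.56 with exon 5 at chr12:13239536-13239585 and 3.85 without exon 5 at chr12:13241686-13241735 in the authors' deposited tables. Its Rbm38 cluster was not enriched.

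Of the 16 helicases of ribosome biogenesis, 6 had an enriched cluster with exon 5, 4 without it and 5 for Rbm38. The enriched share was 12 of 28 clusters (42.9%), 14 of 42 (33.3%) and 14 of 19 (73.7%). Ddx21 (gene 56200, chr10:62580247-62602298, minus strand), a nucleolar helicase, held 9 enriched of 11 Rbm38 clusters, 6 of them within 2 kb of the 3′ end at 2.37 to 4.14 in the authors' deposited table. In the same stretch the 7 clusters with exon 5 ran from -1.10 to 0.67 and the 7 without exon 5 from -2.36 to -0.17, none enriched, in the authors' deposited tables. Puf60 had clusters of its own near the other end of the gene. Between 18188 and 18613 nt from the 3′ end the folds were 2.95, 2.94 and 2.96 with exon 5 and 2.90 and 2.94 without it, and an Rbm38 cluster had -0.58, not enriched, in the authors' deposited tables.

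Ddx50 (gene 94213, chr10:62615792-62658764, minus strand), the paralogue and neighbour of Ddx21, also had its highest Rbm38 fold near the 3′ end. Its strongest Puf60 cluster lay in the middle of the gene, and each protein had only 1 listed cluster within 2 kb of the 3′ end. Puf60 had its strongest cluster at chr10:62640836-62640935, with 3.57 with exon 5 and 3.92 without it in the authors' deposited tables. Rbm38 had -0.09 there and 4.65 at chr10:62616086-62616285, 393 nt from the 3′ end, in the authors' deposited table. Dhx37, which acts on the U3 snoRNP, is the 1 gene in which the strongest clusters of Rbm38 and of Puf60 with exon 5 were the same. It had only 1 listed cluster per protein. At chr5:125414536-125414585 the folds were 1.40 with exon 5, 0.36 (not enriched) without it and 2.00 for Rbm38 in the authors' deposited tables. Ddx27 had 4.01 with exon 5 (chr2:167026451-167026500) and 3.66 without it (chr2:167033051-167033100) in the authors' deposited tables, 8469 and 1869 nt from the 3′ end. Ddx18 had 1 enriched cluster with exon 5 (1.35) and 1 for Rbm38 (2.65), and Ddx51 had 1 for Rbm38 (1.00), in the authors' deposited tables. Ddx49 had 3.23 without exon 5 and Dhx33 1.97 with exon 5 in the authors' deposited tables. Ddx10, Ddx24, Ddx47 and Ddx56 were listed but not enriched in any table.

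Outside these groups, Dhx40 (gene 67487, chr11:86768849-86807877, minus strand) held the highest Puf60 fold of the family. Its cluster at chr11:86769236-86769335, 436 nt from the 3′ end, had a log2 fold of 5.15 with exon 5 (adjusted p = 6.01e-251) and 5.63 without it (adjusted p = 7.86e-309) in the authors' deposited tables. The Rbm38 cluster there had 0.54 and an adjusted p of 1 in the authors' deposited table. This cluster is among the 10 enriched clusters with exon 5 and the 14 without it that lay within 2000 nt of a 3′ end. Dhx57 was enriched with exon 5 in 1 of 3 clusters (3.44) and without exon 5 in 3 of 6 (up to 3.60) in the authors' deposited tables, and in none of 3 for Rbm38. Dhx30, which assembles mitochondrial ribosomes, had 1.88 without exon 5 and 2.70 for Rbm38 in the authors' deposited tables, at different places. The 3 RNA sensing genes and the 3 germline genes had no listed cluster on their strand.

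Position in the gene separated the proteins. Within 2000 nt of the 3′ end lay 10 of 92 enriched clusters of Puf60 with exon 5 (10.9%, 6.01 to 18.9), 14 of 130 without exon 5 (10.8%, 6.52 to 17.3) and 35 of 73 of Rbm38 (47.9%, 36.9 to 59.2). Over all protein-coding genes the shares were 15.2%, 15.2% and 43.1%, so the helicase genes follow the pattern of the tables as a whole. Among helicase clusters that were listed but not enriched the order was the reverse. There 42 of 89 with exon 5 (47.2%), 43 of 113 without exon 5 (38.1%) and 11 of 89 for Rbm38 (12.4%) lay near the 3′ end, against 29.6%, 34.3% and 10.2% over all protein-coding genes. Within 2000 nt of the 5′ end lay 3 of 92 enriched clusters with exon 5 (3.26%, 1.12 to 9.15) and 4 of 130 without exon 5 (3.08%, 1.20 to 7.64). For Rbm38 it was 0 of 73, with an upper Wilson bound of 5.00%. Over all protein-coding genes 7.59%, 7.78% and 4.97% lay there. The intervals with exon 5 and for Rbm38 hold the background, and that without exon 5 ends just below it.

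Per gene, the strongest enriched cluster lay within 2000 nt of the 3′ end in 2 of 18 genes with exon 5 (Dhx37 and Dhx40), in 2 of 17 without it (Ddx27 and Dhx40) and in 12 of 19 for Rbm38. The same share over all protein-coding genes was 18.5%, 18.7% and 64.0%. The 12 genes for Rbm38 were Ddx5, Ddx18, Ddx19a, Ddx21, Ddx39b, Ddx3x, Ddx42, Ddx50, Ddx51, Dhx9, Dhx15 and Dhx37. They come from the splicing, export, translation and ribosome groups alike. Ddx17, Ddx46, Ddx6 and Dhx36 were among those whose strongest Rbm38 cluster lay further from the end.

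**Figure D3:**
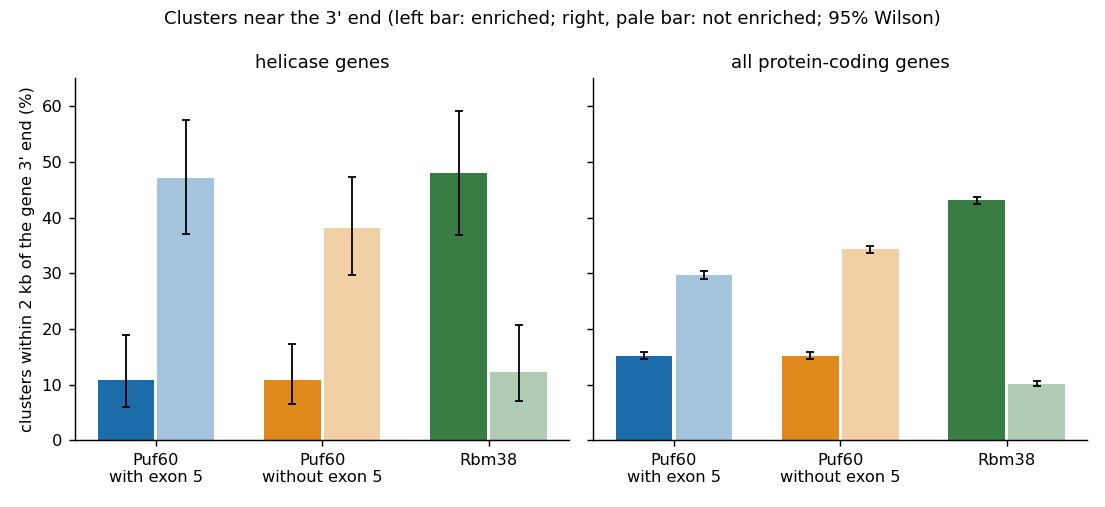
Share of clusters whose centre lies within 2 kb of the 3′ end of the gene, in percent, for helicase genes (left panel) and all protein-coding genes (right panel). For each protein the left bar is enriched clusters and the right, pale bar clusters that were not enriched, with 95% Wilson intervals. For helicase genes the enriched bars stand at 10.9%, 10.8% and 47.9% and the pale bars at 47.2%, 38.1% and 12.4%.

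The Puf60 isoforms were then compared at the same places. Of the 92 enriched clusters with exon 5, 72 (78.3%, 68.8 to 85.5) overlapped an enriched cluster without exon 5, 7 met only clusters that were not enriched and 13 met none. Of the 130 without exon 5, 79 (60.8%, 52.2 to 68.7) overlapped an enriched one with exon 5. Over all enriched clusters of the tables these shares were 64.2% and 63.7%. Matching each cluster with the one it overlaps most gave 126 pairs, of which 69 were enriched in both tables, 7 with exon 5 only, 11 without exon 5 only and 39 in neither. Across these pairs, which share genes and the same kind of library but have separate inputs, Pearson's r was 0.93 and Spearman's rho 0.93. Over all 20187 matched pairs of the tables they were 0.94 and 0.92. In the 87 pairs enriched in at least 1 table the difference, with minus without exon 5, had a median of -0.01 and an SD of 0.64 between pairs, from the authors' deposited tables. Over all 10778 such pairs of the tables the median was 0.07 and the SD 0.73. Both tables called 69 of the 87 helicase pairs (79.3%) and 8822 of the 10778 (81.9%), so that at matched clusters the isoforms shared calls about as often in helicase genes as elsewhere. The strongest enriched cluster was at the same place in 7 of the 14 genes enriched in both tables, Ddx5, Ddx17, Ddx39a, Ddx46, Ddx50, Dhx9 and Dhx40. Of these, Ddx39a and Dhx40 had only 1 listed cluster per isoform. The same count is not given over all protein-coding genes, so nothing particular to helicases is read from it.

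Differences over 1 on the log2 scale were found in 12 of the 87 pairs, 4 higher and 8 lower with exon 5, while all such pairs of the tables had 982 higher and 715 lower. No replicate values exist to test any of them. Ddx46 had 2.33 with exon 5 and 3.91 without it at chr13:55660151-55660200 in the authors' deposited tables. Ddx50 had 1.71 with exon 5 and 2.88 without it at chr10:62642336-62642385, and 0.91 (not enriched) with exon 5 and 2.53 without it at chr10:62647186-62647235, in the authors' deposited tables. Both genes thus had lower folds with exon 5 at these clusters, although their strongest clusters differed by less. Ddx17 had 0.99 with exon 5 and -0.21 without it at chr15:79529586-79529685 in the authors' deposited tables. In its pair that starts at 79534586 the folds were -0.21 with exon 5 (200 nt wide) and 1.57 without it (50 nt wide) in the authors' deposited tables. Another cluster without exon 5 inside the wider one had 1.17 in the authors' deposited table. Ddx39b likewise had pairs on both sides. In the pair that starts at 35249501 it had 3.41 with exon 5 (400 nt wide) and 4.46 without it (100 nt wide) in the authors' deposited tables. Other clusters without exon 5 that overlap the wider one had 3.44, 2.77 and 2.19 in the authors' deposited table, so the pair compares unlike stretches. At chr17:35250651-35250700 the folds were 2.03 with exon 5 and 0.91 without it in the authors' deposited tables. In that last pair the higher value was not enriched and the lower was, so the deposited adjusted p does not follow the fold alone. Dhx9 had 3 pairs lower and 1 higher with exon 5, and Dhx37, given above, had its 1 pair higher with exon 5.

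**Figure D4:**
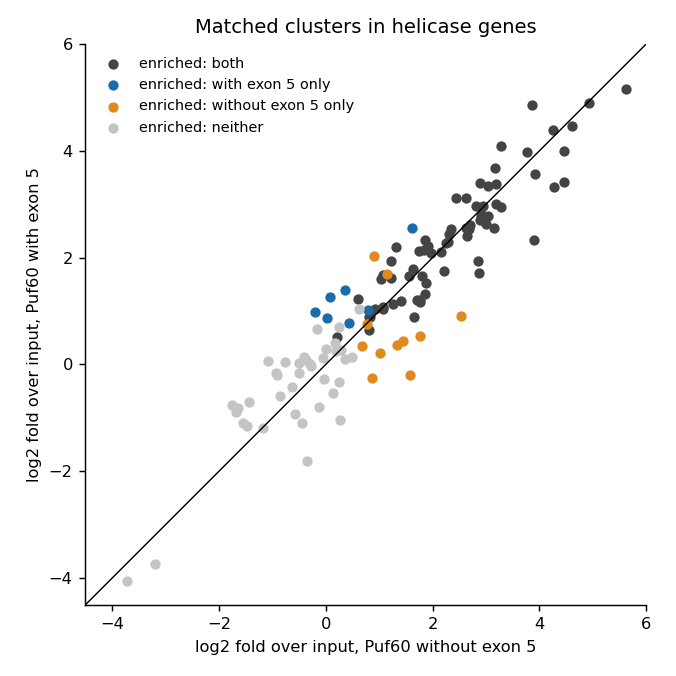
Log2 fold over input of Puf60 with exon 5 (vertical axis) against Puf60 without exon 5 (horizontal axis) in the 126 matched clusters of helicase genes, 1 point per pair, with the line of equal values. Points are coloured by the table in which they are enriched. The 69 pairs enriched in both lie along the line, up to Dhx40 at 5.15 with exon 5 and 5.63 without it.

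Puf60 and Rbm38 shared fewer places than the isoforms did. Of the 92 enriched clusters with exon 5, 21 (22.8%, 15.4 to 32.4) overlapped an enriched Rbm38 cluster, and of the 73 Rbm38 clusters 18 (24.7%, 16.2 to 35.6) overlapped one with exon 5. For Puf60 without exon 5 the shares were 29 of 130 (22.3%, 16.0 to 30.2) and 22 of 73 (30.1%, 20.8 to 41.4). Over all enriched clusters of the tables, 22.2% of those with exon 5 and 20.0% of those without it overlapped an enriched Rbm38 cluster, close to the helicase shares. Of all enriched Rbm38 clusters, 12.4% overlapped one with exon 5 and 11.5% one without it. Counted from the Rbm38 side, both helicase intervals lay above these shares, and the difference was not tested. Where Puf60 and Rbm38 had a matched cluster, their folds were negatively correlated. Pearson's r was -0.23 over 87 pairs with exon 5 (rho -0.33) and -0.38 over 95 pairs without exon 5 (rho -0.45), given as a description of clusters that share genes. Over all matched clusters of the tables r was 0.08 and -0.01. In pairs enriched in at least 1 table, a choice made on the same values, r was -0.51 and -0.61 in helicase genes. Over all such pairs of the tables it was -0.38 and -0.44, so a negative r there is not particular to helicase genes. The strongest clusters of Puf60 and Rbm38 coincided in 1 of 13 genes with exon 5, Dhx37, and in 0 of 12 without it. Dhx37 had only 1 listed cluster per protein, so there was no choice of strongest cluster. These counts are not given over all protein-coding genes, so nothing particular to helicases is read from them.

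A list of 16 helicase symbols outside the Ddx and Dhx names was set beside the family, and 15 were found. Enriched clusters occurred in 6 of them with exon 5, 5 without it and 10 for Rbm38, with 23 of 56 clusters (41.1%), 20 of 54 (37.0%) and 16 of 48 (33.3%). Eif4a2, a translation initiation helicase with the DEAD motif, held 10 enriched of 22 clusters with exon 5, 8 of 16 without it and 2 of 11 for Rbm38. Its relative Eif4a1 held 6 of 14, 7 of 14 and 3 of 10. Snrnp200, the U5 helicase, was enriched for Rbm38 only, with 1 of 4 clusters, at 4.05 in the authors' deposited table. Upf1, the helicase of nonsense-mediated decay, had up to 3.51 with exon 5, 4.23 without it and 2.80 for Rbm38 in the authors' deposited tables.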

How the data were processed

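N2A cells expressing a Flag-tagged Puf60 isoform or Rbm38 gave 3 CLIP libraries per protein, each set beside 1 size-matched input. TopHat, edgeR and the builds NCBIM37 and mm10 appear, with no version or role, in the submitters' processing notes. For cluster calling, the collapse of random bases and the use of replicates, the settings were not given in the sources used here. Each deposited table holds a log2 fold per cluster, made by the authors. Beside it stand a p-value and an FDR, per the file headers. The fold was read as CLIP over input from its column name and from the tagged genes. The tables hold 0 columns of values per sample, so depth is unknown.

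Cluster starts fall on a 50 nt grid with an offset of 0 (read as plus strand) or 35 (minus). A gene's strand came from the RefSeq promoter table, GRCm38.p6, for 47 helicase genes, and from at least 3 clusters with 80% or more on 1 offset for Ddx6 and Ddx39a. Where the promoter table gives a strand, 93.5%, 93.6% and 94.4% of enriched clusters lying in 1 gene matched it. Gene bodies and coordinates, printed 1-based, are of that build, the same as mm10. Clusters overlapped at 1 nt or more on the same strand, and pairs were each other's largest overlap. In helicase genes 10, 7 and 23 clusters combine a p under 0.05 with an adjusted p of 1, for an unstated reason, and p was missing at 0, 0 and 2. The scripts (Python 3.11.15, pandas 2.3.3) were tested on simulated data. Genes named with values are, per table, the 10 with the most enriched clusters and the 10 with the highest enriched fold, genes with a matched isoform difference over 1, and the members of each role group with the most clusters; the few others named, where a count was 5 or fewer, were chosen after their values were seen. Members, lists and rules were chosen with earlier results of these data known.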

Additional observations from a re-analysis of the deposited data

Results flagged for a closer look

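Some enriched clusters lie in helicase genes but were not counted there. They are given because the counts of helicase clusters above leave them out. Counts over every listed cluster, and the setting with strand ignored below, include them. In Ddx54, a helicase of ribosome biogenesis, the cluster at chr5:120625236-120625285 lies on the strand opposite to the gene and was enriched for all 3 proteins, with 4.87 with exon 5, 4.47 without exon 5 and 2.98 for Rbm38 in the authors' deposited tables. No other gene with a known strand lies there on that strand. In Dhx9, an Rbm38 cluster on the opposite strand (chr1:153479601-153479650) had 0.74 in the authors' deposited table.

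For Ddx11 and Ddx23 the gene's strand could not be settled. Ddx11, a helicase of sister chromatid cohesion, had Puf60 clusters with exon 5 on the plus strand at chr17:66138851-66138900 and chr17:66143401-66143450, with 3.22 and 3.58 in the authors' deposited table. It had an Rbm38 cluster on the minus strand at chr17:66151836-66151885 with 1.06 in the authors' deposited table. Ddx23, the homologue of yeast Prp28, had an Rbm38 cluster at chr15:98645436-98645485 with 3.52 in the authors' deposited table. What these clusters represent was not tested.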

How the results depend on the processing

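Counts of enriched clusters and genes, medians and shares were recomputed with the deposited adjusted p under 0.01, Benjamini-Hochberg adjustment of the deposited p, a log2 fold of at least 1, any overlap with the gene body, clusters in another gene left out, and strand ignored. They were also recomputed, chosen after seeing the data, with promoter-table strands only, without clusters at small RNA genes, and without Ddx17, Ddx39b, Dhx9 and Ddx5. Except without those 4 genes, every count of clusters stayed within 1.5 times, and every count of genes did under each setting. Benjamini-Hochberg adjustment moved the Rbm38 median to 1.68, over 95 clusters. Leaving out those 4 genes gave 28, 37 and 40 enriched clusters for Puf60 with exon 5, without exon 5 and Rbm38, with medians of 2.94, 2.94 and 2.50. Within 5000 nt of the 3′ end lay 34.8%, 36.2% and 78.1%. With an overlap of at least 50% of both clusters, 67.4% of the clusters with exon 5 met one without exon 5 and 13.0% one of Rbm38. Apart from the medians without the 4 genes, these changes follow by construction from more clusters called, fewer genes, a wider distance or a stricter match. The 4 genes were picked by their number of enriched Puf60 clusters and not by fold. Their own enriched clusters had medians of 2.02, 1.76 and 1.57, in the same order of proteins, so the lower medians of the family came from these genes. Other limits near the 3′ end (1000 nt, or a fixed share of the gene length) and centres at most 100 nt apart moved no share beyond its interval. The median isoform difference was -0.02 with the 50% rule and -0.05 with identical ends. Leaving out each replicate was not run, since the tables hold no values per library. No paired analysis was possible because the tables carry comparisons only, with no replicate columns. Depth is unknown, so a helicase gene without a listed cluster is not shown to be unbound.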
